A study of Mus musculus with 12 samples.

Results

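Astrocytes of mice whose glucocorticoid receptor gene had been targeted in astrocytes were compared between pups separated from the dam and pups left undisturbed. The members are 6 of the 12 libraries of the series, chosen by the sample titles alone, with no measured value used: 3 AGR cKO ESD libraries and 3 AGR cKO control libraries. AGR cKO animals carried 2 floxed copies of the glucocorticoid receptor gene Nr3c1 (Nr3c1 flox/flox) and the transgene Aldh1l1-CreERT2, in which the promoter of the astrocyte gene Aldh1l1 drives a Cre recombinase that needs tamoxifen to enter the nucleus. The other 6 libraries came from Cre- animals, Nr3c1 flox/flox without the transgene, also with 3 ESD and 3 control libraries. They share the estimate of the spread in the fit, enter the test of whether the genotypes differed in their response, and are given beside AGR cKO values for comparison. Animals of all 4 groups, controls included, were given 4-hydroxytamoxifen on postnatal days 5 to 7. In the ESD groups the pups spent 3 hours a day apart from the dam on postnatal days 1 to 14, and cortical astrocytes were purified on day 14 by immunopanning and magnetic beads. The labels give no strain, sex or litter and do not say whether a library is 1 animal or a pool, so the p-values measure the spread between these libraries, part of which may be technical.

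The glucocorticoid receptor is a transcription factor that rests in the cytoplasm with heat shock chaperones and moves to the nucleus once corticosterone, the stress hormone of mice, binds it. In astrocytes it is known for inducing genes such as Fkbp5, Tsc22d3, Sgk1 and Zbtb16. The mineralocorticoid receptor Nr3c2 binds the same hormone. Separation of pups from the dam is a standard model of early life stress, and the series as a whole concerns the engulfment receptor MERTK and the removal of synapses by astrocytes. The question for this comparison is which transcripts still differed with separation when the receptor gene had been targeted in the astrocytes themselves.

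The 6 AGR cKO libraries held totals of 43387146 to 52130081 counts. The correlation of log2 CPM (counts scaled to the library size) between any 2 of them was 0.9787 to 0.988. Nr3c1, the targeted gene, stood at 102, 93.2 and 108 CPM in AGR cKO controls and at 90.5, 66.5 and 95.9 CPM in AGR cKO ESD. It stood at 214, 210.1 and 237 CPM in Cre- controls and 209, 205 and 199 CPM in Cre- ESD. Every AGR cKO library lay below every Cre- library. Astrocyte markers dominated: their 20 genes summed to 38510 ± 683 TPM (a level per transcript length) in AGR cKO controls and 41420 ± 1730 TPM in AGR cKO ESD (SD, n = 3). The 20 pan-neuronal markers summed to 399.5 ± 21.6 and 342.7 ± 7.56 TPM, the 20 microglial markers to 584 ± 226 and 577 ± 239 TPM, and the 15 mural cell and fibroblast markers to 5064 ± 392 and 2727 ± 914 TPM. In a principal component analysis of the 6 libraries, ESD 1 and ESD 2 stood at 40.4 and 37.2 on the first component, which held 27.4% of the variance. ESD 3 stood at -15.9, among the controls at -10.6 to -31.7. The second component, with 23.6%, set ESD 1 (-38.4) and ESD 2 (42.3) at opposite ends. Values without 1 library are given beside the list results that depend on it.

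No gene passed the test. In the edgeR quasi-likelihood fit over all 12 libraries, 0 of 19163 genes (0%) had a Benjamini-Hochberg adjusted p under 0.05 for ESD against control in AGR cKO, and the smallest adjusted p was 0.4876. Before adjustment 1453 genes (7.58%) had p under 0.05, of which 623 (3.25% of genes tested) were higher and 830 (4.33%) lower in ESD. All 3 ESD libraries lay above all 3 controls for 1521 genes (7.94%) and below them for 1658 (8.65%). Log2 fold changes were above 0 for 51% of genes and below 0 for 49%, with a median of 0.00388 and quartiles of -0.155 and 0.129. DESeq2, run on the same counts as an alternative, called 23 of the 16928 genes to which it gave an adjusted p (0.136%), 3 of them higher and 20 lower. The genes below are therefore described by their values and are not called changed.

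The gene with the smallest p was Sez6l2, a transmembrane protein of neurons, at 5.65 ± 0.41 CPM in controls and 2.52 ± 0.406 CPM in ESD (SD, n = 3), a log2 fold change of -1.16 ± 0.18 (SE). Its edgeR adjusted p was 0.488. Every ESD library was below every control, and DESeq2 called it. Syt1, the calcium sensor of synaptic vesicles, stood at 9.4, 14 and 6.58 CPM in the control libraries and 4.88, 2.19 and 3.46 CPM in the ESD libraries (-1.51 ± 0.35). The groups were apart, as the rule for naming Syt1 required, with a wide spread among controls. DESeq2 called it. Map1b, a microtubule protein of growing axons, stood at 28.4, 26.6 and 25 CPM in the control libraries and 18.3, 17.3 and 15.8 CPM in the ESD libraries (-0.64 ± 0.16). Ppp2r2c, a brain form of the regulatory subunit of protein phosphatase 2A, was at 5.42, 6.39 and 6.56 CPM in controls and 4.52, 3.78 and 3.44 CPM in ESD. Pde1a, a calcium-dependent phosphodiesterase, was at 8.27, 8.62 and 5.71 against 3.09, 2.53 and 3.78 CPM. DESeq2 called Ppp2r2c and Pde1a and not Map1b.

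A pair of long noncoding RNAs from the same imprinted cluster on chromosome 12 were also among the 15 lower genes with the smallest p. Meg3, at 109540996 to 109571729 in RefSeq on GRCm38.p6, stood at 103, 110.5 and 91.7 CPM in the control libraries and 40.6, 62.3 and 62.3 CPM in the ESD libraries (-0.89 ± 0.19, edgeR adjusted p 0.647). Rian, at 109603945 to 109661716, stood at 31, 31.9 and 26.8 CPM in the control libraries and 17.5, 14.1 and 18.9 CPM in the ESD libraries (-0.83 ± 0.19). Both are expressed from the maternal chromosome, and DESeq2 called both. For both every ESD library was below every control, as the rule for naming them required. Neighbours in the cluster were looked at after those values were seen. Mirg, the next maternally expressed RNA, was at 0.947 ± 0.198 CPM in controls and 0.549 ± 0.156 CPM in ESD (-0.79 ± 0.41). The paternally expressed genes Dlk1, at 1.07 ± 0.0572 CPM in controls and 0.805 ± 0.134 CPM in ESD (-0.41 ± 0.37), and Dio3, at 0.45, 0.478 and 0.594 against 0.10, 0.139 and 0.341 CPM (-1.39 ± 0.62), were scarce. In Cre- animals the log2 fold changes were -0.18 ± 0.19 for Meg3 and -0.28 ± 0.19 for Rian, and the difference between genotypes had adjusted p-values of 0.999 for both.

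Other genes of the lower set are known from cells other than neurons. Every gene of this set had all ESD libraries below all controls, as the rule for naming them required. Rab8b, a small GTPase of membrane traffic, stood at 43, 42.4 and 40.9 CPM in the control libraries and 30.5, 31.6 and 31.2 CPM in the ESD libraries (-0.44 ± 0.09), with both groups narrow and apart. Rnd3, a small GTPase that acts on the actin cytoskeleton, stood at 64.7, 61.4 and 57.1 CPM in the control libraries and 45.7, 39.7 and 42.4 CPM in the ESD libraries (-0.52 ± 0.11). Zic4, a zinc finger transcription factor, stood at 13.2, 15 and 17.3 CPM in the control libraries and 7.09, 8.63 and 9.08 CPM in the ESD libraries (-0.87 ± 0.19). Its neighbour Zic1 stood at 106 ± 5.46 CPM in controls and 63.1 ± 15.2 CPM in ESD (-0.75 ± 0.22). Npy1r, a receptor for neuropeptide Y, stood at 16.4, 17.8 and 19.8 CPM in the control libraries and 7.09, 5.83 and 9.67 CPM in the ESD libraries (-1.26 ± 0.31). Tm4sf1, a membrane protein of endothelium and mural cells that is also on the A2-type reactive list, stood at 40.5, 41.1 and 37.8 CPM in the control libraries and 20.2, 17.1 and 29.6 CPM in the ESD libraries (-0.83 ± 0.21). Lpgat1 (-0.46), a phospholipid acyltransferase, Thsd7a (-0.69), a thrombospondin repeat protein, and Endod1 (-0.38) also belong to the set, each with an edgeR adjusted p of 0.647. Of the genes in this paragraph DESeq2 called Rab8b, Rnd3, Zic4 and Npy1r. The summed mural cell and fibroblast markers, at 6720, 7205 and 6223 CPM in controls and 3809, 2521 and 5025 CPM in ESD, separated the same libraries, and their part in these values was not tested.

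The 15 genes of the higher set had log2 fold changes of 0.22 to 0.66, against -1.51 to -0.38 in the lower set. Nptx2, a pentraxin that gathers AMPA receptors at synapses, stood at 9.4, 10.5 and 9.46 CPM in the control libraries and 16.8, 14.4 and 15.4 CPM in the ESD libraries, a log2 fold change of 0.66 ± 0.12. Its edgeR adjusted p was 0.647, and DESeq2 called it. In Cre- animals Nptx2 was at 11.2, 12.9 and 12.3 CPM in controls and 12.4, 10.5 and 13.5 CPM in ESD. Cacng8, an auxiliary subunit of AMPA receptors, stood at 15.7, 16.4 and 16.9 CPM in the control libraries and 21.4, 19.4 and 19.8 CPM in the ESD libraries (0.31 ± 0.08). Apba2, an adaptor of the amyloid precursor protein and of synaptic vesicle release, stood at 172, 178 and 177 CPM in the control libraries and 227, 226 and 198 CPM in the ESD libraries (0.30 ± 0.08). Fam163a (0.43 ± 0.10) was at 54.6, 53.7 and 49.1 against 72.1, 67 and 72.7 CPM, and Limch1 (0.36 ± 0.09), which activates nonmuscle myosin, at 264, 264 and 255 against 363, 329 and 314 CPM. All 3 ESD libraries were above all 3 controls for each, as the rule for naming them required.

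Of the rest of the higher set, 2 serve mitochondrial protein synthesis and assembly. Oxa1l, which inserts proteins into the inner mitochondrial membrane, was at 41.2, 42.8 and 43.5 CPM in the control libraries and 51.1, 49.8 and 51 CPM in the ESD libraries (0.25 ± 0.06), and DESeq2 called it. Tsfm, the mitochondrial elongation factor Ts, was at 7.14, 6.82 and 7.06 against 10.3, 9.15 and 8.95 CPM (0.43 ± 0.11). Pde9a, a phosphodiesterase for cyclic GMP, was at 38.6, 40.7 and 38.1 CPM in the control libraries and 57.1, 52.3 and 51.1 CPM in the ESD libraries (0.45 ± 0.12). Taf10 (0.53), a subunit of the general transcription factor TFIID, Commd9 (0.34), a part of the endosomal Commander complex, Pmm1 (0.32), a phosphomannomutase, Lmcd1 (0.39), Mpnd (0.29), Ccdc85c (0.32) and Nsdhl (0.22), a cholesterol synthesis enzyme, complete the 15.

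**Figure D1:**
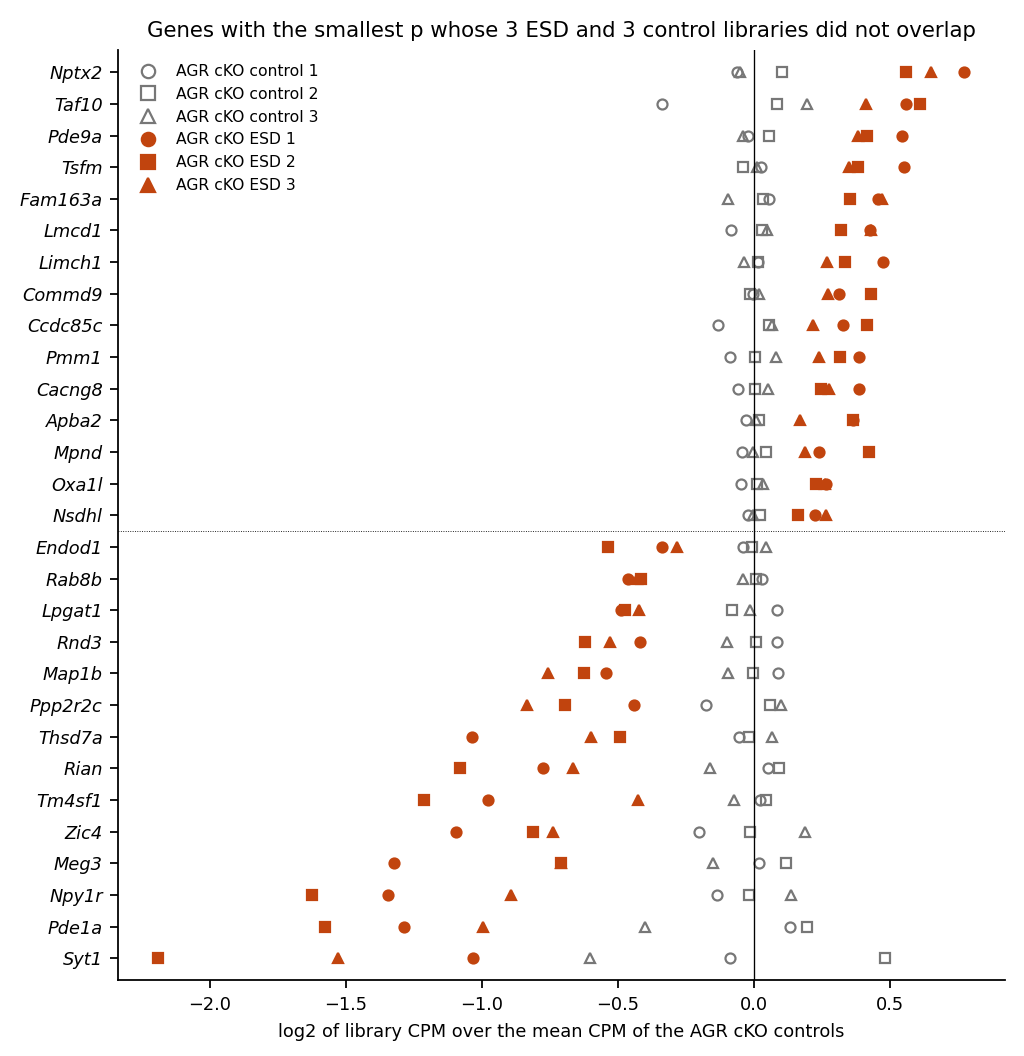
Levels of genes with the smallest p among those with a mean of at least 5 CPM whose groups did not overlap, from the 15 higher and the 15 lower in AGR cKO ESD. Each point is 1 library, placed by the log2 ratio of its CPM to the mean CPM of the 3 AGR cKO controls (open grey), with ESD in orange. The higher genes lie within 0.22 to 0.66 of the controls on average and the lower ones reach -1.51, and no gene passed the edgeR test.

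Transcripts that mark neurons were lower in AGR cKO ESD across several lists. Of the 20 pan-neuronal markers 17 had a log2 fold change below 0, with a list median of -0.28, and 7 had an unadjusted p under 0.05, all lower, where 4.33% of all genes were. The 7 are Syt1, Rbfox3, Snap25, Tubb3, Uchl1, the neurofilament gene Nefl (-1.06 ± 0.46) and Stmn2 (-0.65 ± 0.29), a tubulin-binding protein. Rbfox3, the nuclear antigen of mature neurons, stood at 1.96, 2.17 and 1.97 CPM in the control libraries and 0.984, 1.03 and 0.933 CPM in the ESD libraries (-1.04 ± 0.25, edgeR adjusted p 0.647). Snap25, a membrane fusion protein of synaptic vesicles, stood at 8.35, 7.82 and 6.2 CPM in the control libraries and 4.78, 3.8 and 3.73 CPM in the ESD libraries (-0.86 ± 0.22). Tubb3, the neuronal tubulin, stood at 2.87, 2.82 and 2.88 CPM in the control libraries and 1.49, 1.77 and 1.71 CPM in the ESD libraries (-0.79 ± 0.22). Uchl1, a neuronal ubiquitin hydrolase, stood at 32.9, 36.1 and 34.2 CPM in the control libraries and 18, 18.7 and 29.9 CPM in the ESD libraries (-0.63 ± 0.23). All 3 ESD libraries were below all 3 controls for each of the 7 under that p but Stmn2, which a small p makes likely. Over the whole list this held for 7 of 20 genes, against 8.65% of all genes. The list was not uniform: Thy1 (0.16 ± 0.14), Elavl4 (0.13 ± 0.14), Syn2 (0.04 ± 0.09) and Syn1 (-0.04 ± 0.12) had overlapping groups.

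The score of the pan-neuronal list in a library, the median over its genes of log2 CPM minus the control mean, was -0.04, 0.07 and -0.03 in the controls and -0.31, -0.41 and -0.40 in ESD. All 3 ESD libraries lay below all 3 controls, ESD 3 as far as ESD 1. Leaving out any 1 AGR cKO library left 5 to 7 members under an unadjusted p of 0.05, all lower, with the median between -0.38 and -0.25. In bulk samples such as these, fewer cells of a type and less RNA per cell cannot be told apart.

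Excitatory and inhibitory markers lay mostly below 0, and most overlapped between groups. Slc17a7, the vesicular glutamate transporter of cortical excitatory neurons, stood at 6.67, 8.36 and 5.81 CPM in the control libraries and 2.59, 1.47 and 1.94 CPM in the ESD libraries, with every ESD library well under the lowest control and a log2 fold change of -1.8 ± 0.33 (edgeR adjusted p 0.647). DESeq2 called it. Sst, the interneuron peptide somatostatin, stood at 0.665, 0.63 and 0.389 CPM in the control libraries and 0.10, 0.139 and 0.0911 CPM in the ESD libraries (-2.32 ± 0.66). Gad1 and Gad2, the enzymes that make GABA, stood at 2.66, 4.63 and 4.02 against 1.99, 3.24 and 1.52 CPM and at 2.19, 2.87 and 1.44 against 1.2, 1.89 and 1.16 CPM, with overlapping groups. The excitatory list had a median of -0.22 (10 of 14 lower, 2 under an unadjusted p of 0.05) and the inhibitory list -0.30 (11 of 14 lower, 1 under), counts to be read against the 4.33% of all genes that were lower at that p. The 2 most abundant excitatory markers overlapped between groups: Rorb, a nuclear receptor, stood at 146 ± 12.4 CPM in controls and 149.5 ± 23.4 CPM in ESD (0.03 ± 0.11) and Arpp21 at 60.9 ± 4.35 CPM in controls and 64.6 ± 1.37 CPM in ESD (0.09 ± 0.14). The summed excitatory CPM, most of it from Rorb and Arpp21, overlapped. It stood at 292, 306 and 272 in controls and 299.7, 263 and 303 in ESD. From which cells the reads of Rorb and Arpp21 came was not tested. Leaving out 1 AGR cKO library moved the excitatory median between -0.44 (without ESD 1) and -0.13 (without ESD 2), and the inhibitory median between -0.88 (without ESD 2) and -0.17 (without ESD 1). Their scores varied between the ESD libraries, 0.04, -0.81 and -0.33 for excitatory and -0.82, 0.09 and -0.54 for inhibitory markers.

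Genes of dense-core vesicles, the organelles that store neuropeptides, split into 2 sets. The set that is low in these preparations was lower in ESD. Ptprn, a membrane protein of these vesicles, stood at 4.32, 5.52 and 3.7 CPM in the control libraries and 2.13, 1.45 and 2.21 CPM in the ESD libraries (-1.23 ± 0.23). Pcsk2, a protease that cuts peptide precursors, stood at 2.4, 3.52 and 2.19 CPM in the control libraries and 1.04, 1.11 and 0.66 CPM in the ESD libraries (-1.52 ± 0.30). DESeq2 called both. Chga, a vesicle core protein, stood at 1.66, 1.63 and 1.17 against 0.642, 0.597 and 0.842 CPM (-1.1 ± 0.29). Vgf, a peptide precursor, stood at 1.72, 2.5 and 1.28 against 0.863, 0.597 and 0.933 CPM (-1.2 ± 0.42). Pcsk1 stood at 0.352, 0.847 and 0.411 against 0.181, 0.119 and 0.25 CPM (-1.54 ± 0.47). Chgb (-0.48 ± 0.19) makes the sixth of 15 genes under an unadjusted p of 0.05, all lower, where 4.33% of all genes were. The other 5 had separate groups, as did 8.65% of all genes in that direction. The 2 most abundant members lay the other way: Cpe, carboxypeptidase E, stood at 6028, 7159 and 6856 CPM in the control libraries and 8401, 8942 and 7298 CPM in the ESD libraries (0.30 ± 0.17). Scg3, secretogranin III, stood at 1717, 1779 and 1703 CPM in the control libraries and 2080, 1798 and 1971 CPM in the ESD libraries (0.17 ± 0.09). The sum of the list was thus 7981, 9187 and 8796 CPM in controls and 10730, 11030 and 9489 CPM in ESD while its median was -0.14, and without ESD 3 the median was 0.00257.

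Most receptor subunits lay below 0. Of 22 ionotropic glutamate and GABA receptor genes tested, 19 had a log2 fold change below 0 (median -0.19). An unadjusted p under 0.05 was reached by 5, all lower, where 4.33% of all genes were. Grin2a, an NMDA receptor subunit, stood at 1.39, 2.08 and 1.14 against 0.622, 0.219 and 0.933 CPM (-1.39 ± 0.51). Its groups were apart. The 5 most abundant subunits had smaller differences than Grin2a, of either sign. Gria2 stood at 939.8, 888 and 834 CPM in the control libraries and 796, 796 and 898 CPM in the ESD libraries (-0.10 ± 0.11). Gabrb1 stood at 349, 344 and 358 CPM in the control libraries and 364, 290.1 and 353 CPM in the ESD libraries (-0.06 ± 0.11). Gabrg1 stood at 231, 208 and 196 CPM in the control libraries and 226, 171 and 201 CPM in the ESD libraries (-0.08 ± 0.15). Groups overlapped for these 3. Grik5 stood at 199 ± 14.4 CPM in controls and 224 ± 10 CPM in ESD (0.17 ± 0.11), with every ESD library above every control, and Gabra2 at 132 ± 21.2 CPM in controls and 162 ± 49.8 CPM in ESD (0.29 ± 0.20), with overlapping groups.

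**Figure D2:**
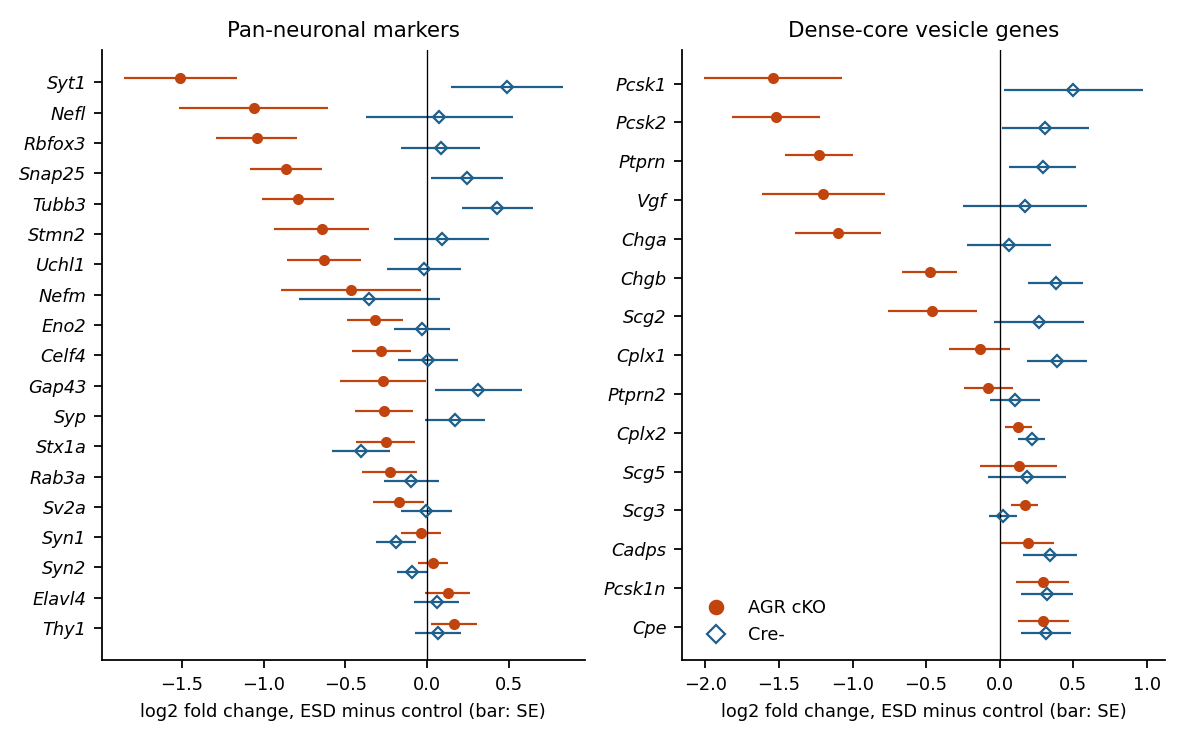
Log2 fold change, ESD minus control, of 19 of the 20 pan-neuronal markers (Nefh, the scarcest, is not drawn) and of the 15 dense-core vesicle genes in AGR cKO (filled circles) and Cre- animals (open diamonds); bars are 1 SE from the edgeR fit. Syt1, Rbfox3, Snap25, Tubb3, Ptprn and Pcsk2 lie below 0 in AGR cKO and above 0 in Cre-, while Cpe and Scg3 lie above 0 in AGR cKO.

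**Figure D3:**
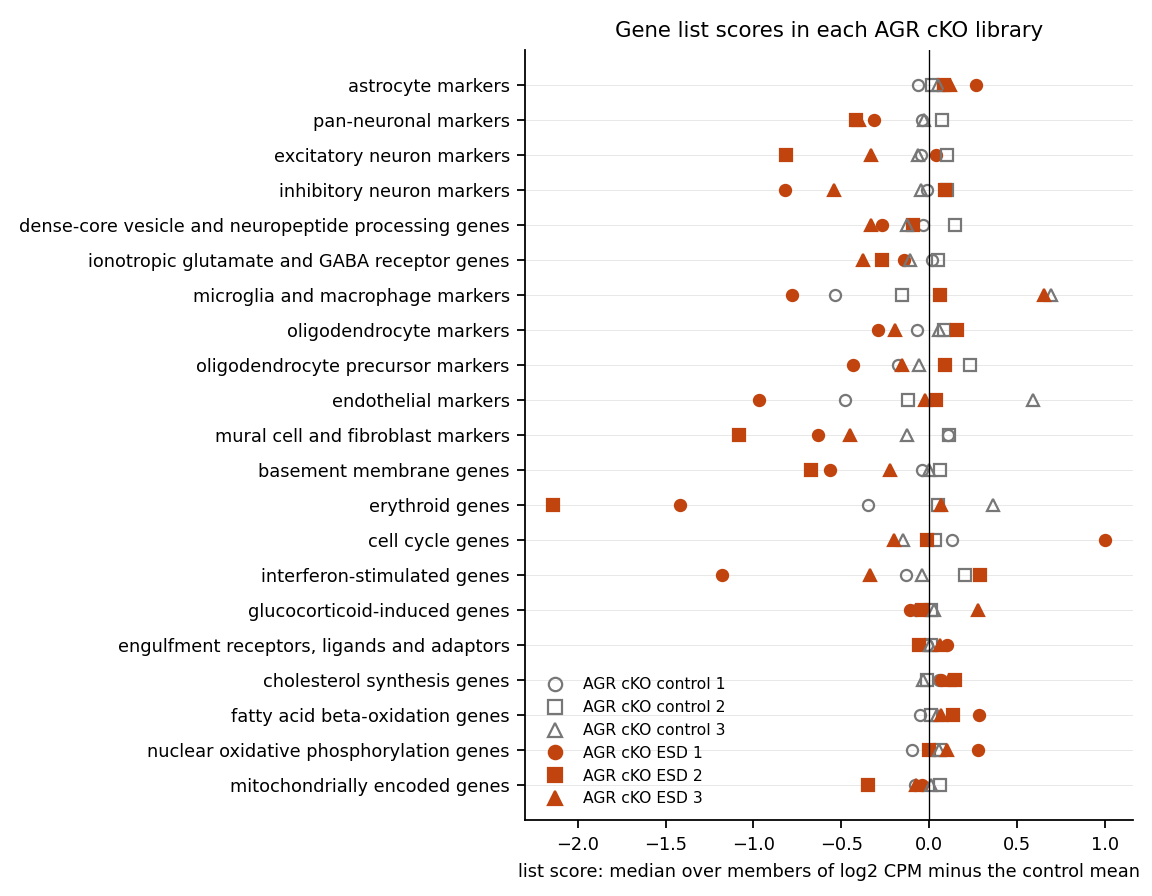
Scores of 21 gene lists in each of the 6 AGR cKO libraries: the median over list members of log2 CPM minus the mean of the controls (open grey symbols), with ESD in orange and the symbol giving the replicate. Pan-neuronal, mural cell and basement membrane scores lie below the controls in all 3 ESD libraries, whereas cell cycle and interferon scores depart from the controls in ESD 1.

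Mural cell and fibroblast transcripts had the lowest median of any list with over 5 genes, -0.75. Mural cells are the pericytes and smooth muscle cells that wrap vessels, and perivascular fibroblasts make collagen around them. Of 15 genes 14 had a log2 fold change below 0 and 9 an unadjusted p under 0.05, all lower, where 4.33% of all genes were. In 11 every ESD library was below every control (8.65% of all genes). Rgs5, a pericyte marker, stood at 3136, 3359 and 2845 CPM in the control libraries and 1639, 832 and 2271 CPM in the ESD libraries (-0.98 ± 0.38, edgeR adjusted p 0.647). Pdgfrb, the receptor that recruits pericytes, stood at 639, 677 and 645 CPM in the control libraries and 373, 328 and 544 CPM in the ESD libraries (-0.65 ± 0.25). Vtn, vitronectin, stood at 700.5, 798 and 698 CPM in the control libraries and 341, 270.2 and 576 CPM in the ESD libraries (-0.89 ± 0.37). ESD 2 was the lowest and ESD 3 the highest of the ESD libraries for these genes. Myh11, the smooth muscle myosin, stood at 34.9, 30.2 and 28.9 CPM in the control libraries and 16.6, 8.3 and 22 CPM in the ESD libraries (-1.0 ± 0.39). Kcnj8, a pericyte potassium channel, stood at 84.5, 98.2 and 91.7 against 41.4, 25.2 and 76.1 CPM (-0.94 ± 0.38).

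The growth factor Igf2 and collagen III were low in all 3 ESD libraries to a similar extent. Igf2 stood at 665, 674 and 516 CPM in the control libraries and 351, 278 and 362 CPM in the ESD libraries (-0.91 ± 0.26). Col3a1 stood at 129, 125 and 104 CPM in the control libraries and 76.7, 56.2 and 65.9 CPM in the ESD libraries (-0.85 ± 0.26). Notch3, the Notch receptor of mural cells, stood at 527, 559 and 535 CPM in the control libraries and 429.6, 354 and 449 CPM in the ESD libraries (-0.40 ± 0.14). Fibroblast markers with no such difference were Col1a1 (-0.08 ± 0.38), Dcn (0.04 ± 0.43) and Lum (-0.17 ± 0.53). Without ESD 2 the list median was -0.51 with 2 members under an unadjusted p of 0.05, and without ESD 3 it was -0.90 with 10. In Cre- animals the groups overlapped: the summed CPM of the list was 6871, 3664 and 6604 in Cre- controls and 4449, 3570 and 7040 in Cre- ESD, and no AGR cKO control lay as low as Cre- control 2.

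Basement membrane genes followed the mural list. Of 14 genes 13 had a log2 fold change below 0 (median -0.43). An unadjusted p under 0.05 was found for 5, all lower (4.33% of all genes), and separate groups for 10, all lower (8.65%). Lamb1, a laminin beta chain, stood at 166, 189 and 154 CPM in the control libraries and 97.3, 60.5 and 114 CPM in the ESD libraries (-0.90 ± 0.29). Nid1, nidogen, stood at 482, 538 and 486 CPM in the control libraries and 271, 187 and 397 CPM in the ESD libraries (-0.82 ± 0.32). Col4a1, a chain of collagen IV, stood at 1284, 1376 and 1290 CPM in the control libraries and 825, 652 and 1065 CPM in the ESD libraries (-0.64 ± 0.30). Lama4 (-0.72 ± 0.30), Lamc1 (-0.69 ± 0.29) and Lama2 (-0.37 ± 0.14), further laminin chains, make up the 5 with Lamb1 and Nid1, whereas Col4a1, Lama5 (0.06 ± 0.17), Lamb2 (-0.11 ± 0.11) and fibronectin, Fn1 (-0.28 ± 0.55), did not reach that p. Leaving out ESD 1 or ESD 2 left 1 member under that p, and leaving out ESD 3 left 8. S1pr3, Heyl and Cspg4, which mural cells are known to express, were named in other lists for a small p. They were set here with their values known, so they are not separate support. Each was the lowest member of its list. Above 0 lay 5 of 13 pan-reactive, 6 of 12 Notch and 5 of 12 oligodendrocyte precursor genes. S1pr3, a lysophospholipid receptor, stood at 108, 129 and 116 CPM in the control libraries and 61.4, 45.1 and 82.9 CPM in the ESD libraries (-0.90 ± 0.24). Heyl, a Notch target, stood at 94.2, 99 and 94.8 CPM in the control libraries and 53.1, 32.3 and 74.2 CPM in the ESD libraries (-0.85 ± 0.33). Cspg4, the NG2 proteoglycan that marks pericytes as well as oligodendrocyte precursors, stood at 250.4, 275 and 250 CPM in the control libraries and 153, 93.7 and 200.4 CPM in the ESD libraries (-0.79 ± 0.31).

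**Figure D4:**
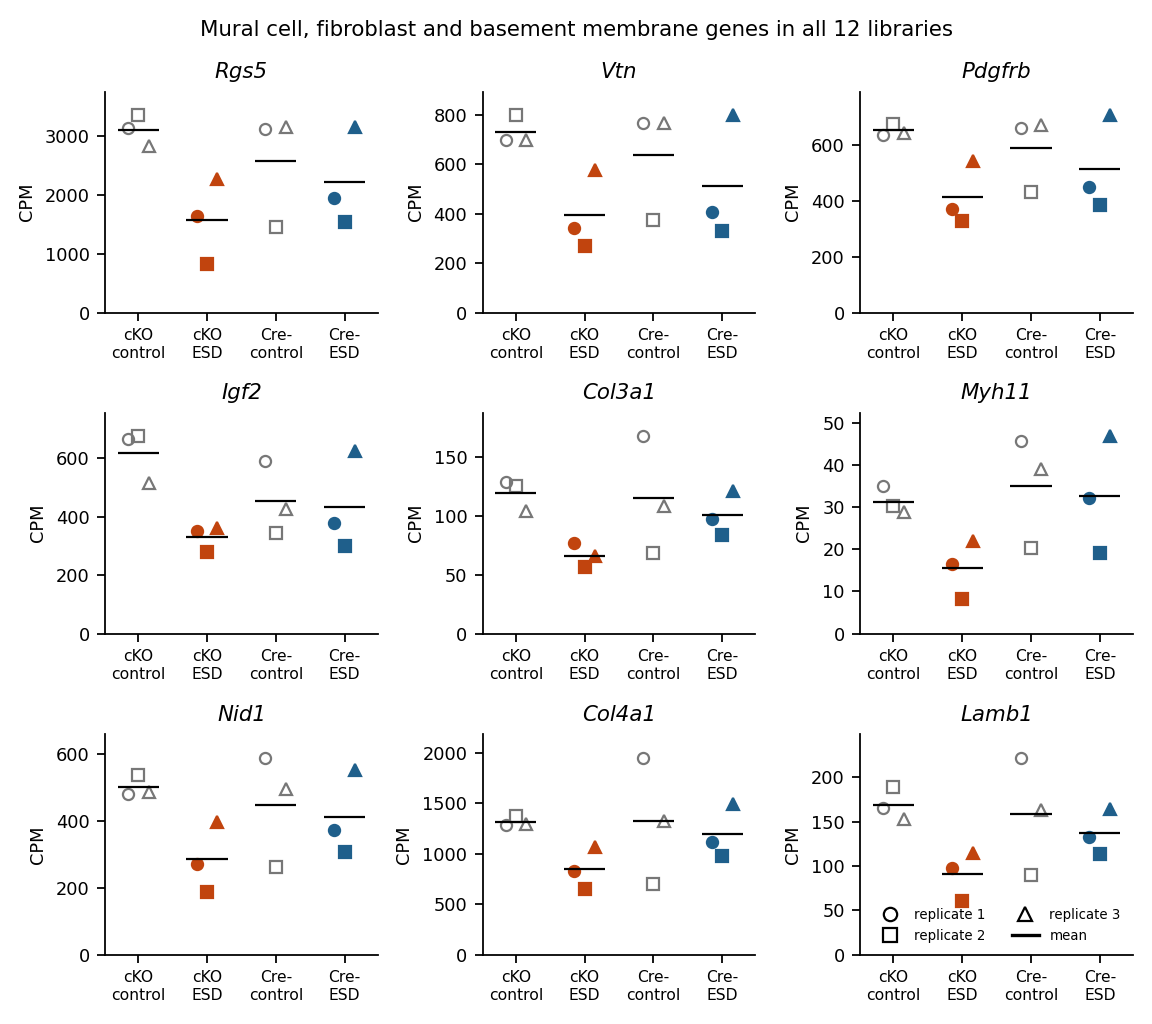
CPM of 9 mural cell, fibroblast and basement membrane genes in all 12 libraries, by group, with symbols for the replicate and a line at the mean of 3 libraries; axes start at 0. All 9 are members whose AGR cKO groups did not overlap, and members without such a difference, such as Col1a1, Dcn and Lum, are not drawn. The 3 AGR cKO controls thus lie above all 3 AGR cKO ESD libraries in every panel. They also lie close together, while Cre- controls and Cre- ESD overlap.

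Other vascular and blood transcripts overlapped between the groups. Endothelial markers had a median of -0.34 with 13 of 14 lower and 1, Emcn (-0.83 ± 0.36), under an unadjusted p of 0.05, but no gene had separate groups. Their scores, -0.48, -0.12 and 0.59 in controls and -0.97, 0.04 and -0.02 in ESD, crossed, and the median was 0.0632 without control 3 and -0.0763 without ESD 1. The 5 erythroid genes were lower (median -0.85) in ESD 1 and ESD 2 only, with summed CPM of 82.9, 111 and 138 in controls and 39.6, 25.4 and 107 in ESD. Microglial markers had a median of -0.000581 with 10 of 20 genes on each side of 0. That balance depended on single libraries: without control 3 the median was 0.42 with 19 of 20 genes above 0, without ESD 1 it was 0.26, without control 1 it was -0.24 and without ESD 3 it was -0.38 with 18 of 20 genes below 0. Oligodendrocyte markers had a median of -0.10 (0.0211 without ESD 1 and -0.40 without ESD 2), and Cnp, the one member under an unadjusted p of 0.05, lay the other way at 186, 193 and 198 CPM in the control libraries and 241, 288 and 217 CPM in the ESD libraries (0.37 ± 0.10). Among precursor markers Olig1, a transcription factor also present in astrocyte progenitors, stood at 81.9, 108 and 99.2 CPM in the control libraries and 178, 168 and 111 CPM in the ESD libraries (0.66 ± 0.19), higher in every ESD library, and Pdgfra (-0.21 ± 0.31) overlapped. Ependymal and choroid plexus markers had 12 of 12 genes below 0 (median -0.29), 1 of them under an unadjusted p of 0.05, in summed CPM ranges of 49.4 to 88.9 in controls and 45.5 to 74.6 in ESD. Without control 1 the median was -0.0178 with 6 of 12 genes below 0.

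Astrocyte identity genes were level or slightly higher in ESD. Of 20 markers 19 had a log2 fold change above 0 (51% of all genes did), with a median of 0.13. An unadjusted p under 0.05 was reached by 3, all higher (3.25% of all genes). Aldh1l1, the folate enzyme whose promoter drives the transgene, stood at 437, 459.6 and 439 CPM in the control libraries and 547, 667 and 459 CPM in the ESD libraries (0.33 ± 0.13), with ESD 3 within the control range. Acsbg1, a fatty acyl-CoA synthetase of astrocytes, stood at 691, 753 and 798 CPM in the control libraries and 959, 890 and 865 CPM in the ESD libraries (0.28 ± 0.10). Kcnj10, an inwardly rectifying potassium channel, stood at 708, 753 and 851 CPM in the control libraries and 1011, 845 and 848 CPM in the ESD libraries (0.23 ± 0.10). Gfap, the intermediate filament of reactive astrocytes, stood at 1349, 1452 and 1338 CPM in the control libraries and 1218, 1775 and 1076 CPM in the ESD libraries (-0.02 ± 0.18), highest in ESD 2 and lowest in ESD 3. Sox9, a transcription factor of the lineage, was at 253, 243 and 229 against 287, 276 and 245 CPM (0.15 ± 0.10). The list's scores were -0.07, 0.02 and 0.05 in controls and 0.27, 0.09 and 0.12 in ESD, and its Cre- median was 0.0843. Without control 1 the AGR cKO median was 0.099 with 0 markers under an unadjusted p of 0.05, and without ESD 1 it was 0.0854 with 1.

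Genes of energy metabolism leaned the same way by small amounts. All 16 fatty acid beta-oxidation genes had a log2 fold change above 0 (median 0.16). Of them 4 were under an unadjusted p of 0.05, where 3.25% of all genes were higher at that p. Acadl, a long-chain acyl-CoA dehydrogenase, stood at 106, 116 and 112 CPM in the control libraries and 141, 135 and 114 CPM in the ESD libraries (0.22 ± 0.08). Cpt1a, which admits fatty acids to mitochondria, stood at 250, 252 and 258 CPM in the control libraries and 310.5, 292 and 259.9 CPM in the ESD libraries (0.18 ± 0.07). Eci1, an enoyl-CoA isomerase, stood at 32, 37.1 and 37 CPM in the control libraries and 43.5, 41 and 43.1 CPM in the ESD libraries (0.27 ± 0.10). Etfdh, which passes their electrons to the respiratory chain, stood at 56.6, 57.1 and 59.4 CPM in the control libraries and 69.1, 64 and 61.2 CPM in the ESD libraries (0.17 ± 0.06). The list score was highest in ESD 1 (0.28), and without ESD 1 the median was 0.10 with 1 gene under that p. Without control 1 the median was 0.14 with 0 genes under it. In Cre- animals 14 of 16 genes were also above 0, with a median of 0.11, and the 2 comparisons share no libraries.

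Of 22 glycolysis, glycogen and lactate genes 19 lay above 0 (median 0.19), 4 under an unadjusted p of 0.05 (3.25% of all genes). Every ESD library was above every control for 10 (7.94% of all genes). Eno1, enolase, stood at 579.5, 649 and 645 CPM in the control libraries and 828, 762 and 723 CPM in the ESD libraries (0.30 ± 0.09). Aldoa, an aldolase, stood at 355, 380.5 and 391 CPM in the control libraries and 452, 429 and 401 CPM in the ESD libraries (0.19 ± 0.07). Gpi1, glucose phosphate isomerase, stood at 287, 330.5 and 339.6 CPM in the control libraries and 388, 359.5 and 345 CPM in the ESD libraries (0.19 ± 0.08). Gys1, a glycogen synthase, stood at 57.9, 70.3 and 65.3 CPM in the control libraries and 81.5, 74.5 and 69.8 CPM in the ESD libraries (0.22 ± 0.10). The lactate carriers Slc16a1 (-0.40 ± 0.43) and Slc16a3 (-0.67 ± 0.37) lay below 0. Without ESD 1, or without control 1, 1 gene of the list was under that p.

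Nuclear and mitochondrial genes for oxidative phosphorylation lay on opposite sides of 0. All 25 nuclear genes were above it, between 0.0184 and 0.20 with a median of 0.13. Without ESD 1 that median was 0.0421 with 21 of 25 genes above 0, and without control 1 it was 0.0734. In the full comparison all 13 mitochondrially encoded genes were below it, between -0.34 and -0.0545 with a median of -0.18. None of either list had an unadjusted p under 0.05. ND3, a complex I subunit of the mitochondrial genome, stood at 126, 125 and 123 CPM in the control libraries and 94.6, 81.4 and 121 CPM in the ESD libraries (-0.34 ± 0.18). ATP8, of the ATP synthase, stood at 1174, 925 and 872 CPM in the control libraries and 859.5, 793 and 796 CPM in the ESD libraries (-0.28 ± 0.14). ESD 2 had the lowest mitochondrial score (-0.35), and without it the median was -0.0475. Of 27 cytosolic ribosomal protein genes 26 were above 0 (median 0.17, and 0.11 without ESD 1) in AGR cKO and all 27 in Cre- animals (median 0.18), with none under an unadjusted p of 0.05 in AGR cKO.

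Cholesterol synthesis, which in the brain is largely an astrocyte task after birth, had 19 of 20 genes above 0 (median 0.11). Under an unadjusted p of 0.05 were 4, all higher, where 3.25% of all genes were. The promoters of 2 of these 4, Nsdhl and Mvk, and of Hmgcs1, which makes the entry substrate of the pathway, are shown because cholesterol genes are known to share binding sites for the sterol regulator SREBP and its partner NF-Y. They run from 250 bases before to 50 bases after the transcription start as given by RefSeq on GRCm38.p6, 5′ to 3′ on the plus strand, with CCAAT boxes (CCAAT or its reverse complement) and the sterol response element TCACNCCAC in capitals.
Nsdhl, chrX:72918271-72918570: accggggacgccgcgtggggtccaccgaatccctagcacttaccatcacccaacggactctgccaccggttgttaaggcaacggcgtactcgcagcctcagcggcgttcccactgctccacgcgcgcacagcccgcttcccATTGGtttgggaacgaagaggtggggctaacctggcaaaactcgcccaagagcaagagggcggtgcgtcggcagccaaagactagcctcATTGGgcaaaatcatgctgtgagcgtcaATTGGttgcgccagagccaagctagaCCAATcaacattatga
Mvk, chr5:114444019-114444318: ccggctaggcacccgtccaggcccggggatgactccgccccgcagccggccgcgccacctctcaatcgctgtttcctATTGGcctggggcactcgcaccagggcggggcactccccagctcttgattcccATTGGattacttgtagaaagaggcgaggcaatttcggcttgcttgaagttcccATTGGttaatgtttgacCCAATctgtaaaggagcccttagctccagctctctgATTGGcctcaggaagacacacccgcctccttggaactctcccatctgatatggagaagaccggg
Hmgcs1, chr13:119690101-119690400: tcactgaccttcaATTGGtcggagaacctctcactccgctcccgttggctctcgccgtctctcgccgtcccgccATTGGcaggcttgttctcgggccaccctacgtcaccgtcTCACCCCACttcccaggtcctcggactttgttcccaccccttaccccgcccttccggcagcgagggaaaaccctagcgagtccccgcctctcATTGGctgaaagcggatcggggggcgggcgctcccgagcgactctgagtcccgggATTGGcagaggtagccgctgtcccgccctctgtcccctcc
Both strands were searched, and the 2 motifs did not overlap in these sequences. The window holds 4 CCAAT boxes in Nsdhl, 5 in Mvk and 4 in Hmgcs1, and 1 sterol response element, in Hmgcs1 from base 114. Of the 20 cholesterol genes 15 had a promoter in the RefSeq table, and 14 of them held a CCAAT box, against 42.4% of the 14022 tested genes with a promoter and 37.4% of all 32851 promoters of this length. The sterol response element was in 1 of the 15, against 1.45% and 1.24%.

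Nsdhl, a sterol dehydrogenase, had the smallest p of the list, at 101, 104 and 102 CPM in the control libraries and 119, 114 and 123 CPM in the ESD libraries (0.22 ± 0.06, edgeR adjusted p 0.647). All 3 ESD libraries were above all 3 controls. Mvk, mevalonate kinase, stood at 53.4, 55.2 and 51 CPM in the control libraries and 56.6, 71.2 and 61.9 CPM in the ESD libraries (0.25 ± 0.10). Sqle, squalene epoxidase, stood at 278, 288 and 272 CPM in the control libraries and 306, 316 and 309.6 CPM in the ESD libraries (0.15 ± 0.06). Fdps, farnesyl diphosphate synthase, stood at 112, 99.9 and 109 CPM in the control libraries and 111, 134 and 124 CPM in the ESD libraries (0.20 ± 0.08). Hmgcs1 (0.11 ± 0.12) had overlapping groups, and Hsd17b7 (-0.18 ± 0.09) was the gene below 0. The regulators Srebf2 (0.17 ± 0.09), Scap (0.12 ± 0.08) and Insig1 (0.17 ± 0.12) each had every ESD library above every control (7.94% of all genes). They belong to the 8 SREBP regulation and sterol uptake genes, of which 1 had every ESD library below every control. None of the 8 had an unadjusted p under 0.05. The list score was 0.07, 0.14 and 0.11 in the ESD libraries, and leaving out 1 AGR cKO library left 1 to 4 genes higher under that p.

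**Figure D5:**
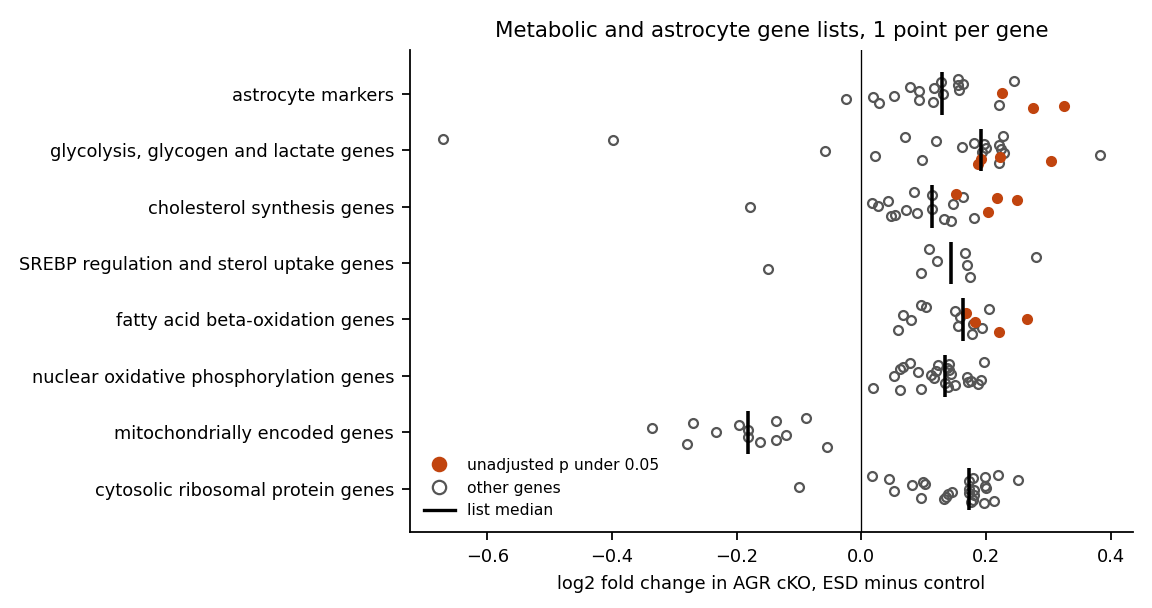
Log2 fold change in AGR cKO, ESD minus control, of every tested gene of 8 lists, 1 point per gene, filled where the unadjusted p was under 0.05, with the list median as a bar. Nuclear oxidative phosphorylation genes all lie above 0 and mitochondrially encoded genes all below 0, and none of either list is filled.

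Genes that glucocorticoids induce were close to their control levels. The 24 genes had a median log2 fold change of 0.0421, with 1, Errfi1, a feedback inhibitor of the EGF receptor, under an unadjusted p of 0.05 at 30.6, 32.5 and 24.8 CPM in the control libraries and 21.7, 17.8 and 23.9 CPM in the ESD libraries (-0.47 ± 0.21). Fkbp5, a co-chaperone that restrains the receptor, stood at 3.95, 4.04 and 3.54 CPM in the control libraries and 3.35, 5.23 and 6.62 CPM in the ESD libraries (0.40 ± 0.73). Tsc22d3, the leucine zipper GILZ, stood at 81.2, 87.1 and 93.5 CPM in the control libraries and 85.7, 68.5 and 106 CPM in the ESD libraries (-0.01 ± 0.31). Sgk1, a kinase, stood at 37.6, 42.3 and 65.9 CPM in the control libraries and 31.4, 47.3 and 53.1 CPM in the ESD libraries (-0.15 ± 0.29). Zbtb16, a zinc finger repressor, stood at 8.88, 11.3 and 9.21 CPM in the control libraries and 7.25, 10.6 and 19 CPM in the ESD libraries (0.32 ± 0.34). Hif3a, a hypoxia-inducible factor, stood at 30.4, 31.9 and 29.9 CPM in the control libraries and 26.5, 31 and 50.2 CPM in the ESD libraries (0.22 ± 0.35). ESD 3 was the highest of the 6 libraries for Fkbp5, Tsc22d3, Zbtb16 and Hif3a. The list score was -0.11, -0.04 and 0.28 in the ESD libraries, and without ESD 3 the median was -0.12. Nr3c2, the mineralocorticoid receptor, stood at 52, 48.7 and 46.2 CPM in the control libraries and 47.7, 36.6 and 50.6 CPM in the ESD libraries (-0.12 ± 0.12). Nr3c1 itself had a log2 fold change of -0.26 ± 0.12, lowest in ESD 2.

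Engulfment genes showed no common shift, with a median of 0.0225 over 20 genes. Under an unadjusted p of 0.05, 2 were higher and 1 lower (3.25% and 4.33% of all genes). Without control 2, or without ESD 2, 0 were. Mertk, the phagocytic receptor that the series concerns, stood at 284, 285 and 296 CPM in the control libraries and 349, 255 and 376 CPM in the ESD libraries (0.18 ± 0.17, edgeR adjusted p 0.85), with ESD 2 below every control and the other 2 ESD libraries above them. Axl, its relative, stood at 429.5, 460.2 and 447 CPM in the control libraries and 469, 401 and 436 CPM in the ESD libraries (-0.03 ± 0.09). Gas6, a bridging ligand of both, stood at 61.9, 62.9 and 57.7 CPM in the control libraries and 58.1, 60.1 and 64.9 CPM in the ESD libraries (0.00 ± 0.12). Megf10, a separate engulfment receptor, stood at 189, 207 and 190.5 CPM in the control libraries and 212, 151 and 227 CPM in the ESD libraries (0.01 ± 0.16). Pros1, the other ligand, stood at 51.9, 50.6 and 49.4 CPM in the control libraries and 38.6, 39.3 and 44.8 CPM in the ESD libraries (-0.31 ± 0.12), lower in every ESD library. Dock1, a Rac activator of engulfment, stood at 209, 198 and 197 CPM in the control libraries and 232, 238 and 214 CPM in the ESD libraries (0.18 ± 0.07). Itgb5, an integrin subunit, stood at 162, 175 and 192 CPM in the control libraries and 204, 231 and 187 CPM in the ESD libraries (0.24 ± 0.09). Lysosome genes had 17 of 22 above 0 (median 0.0681) and none under an unadjusted p of 0.05.

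Among 18 factors by which astrocytes act on synapses, 4 had an unadjusted p under 0.05, against 7.58% of all genes. Ephb1, an ephrin receptor, stood at 107, 111 and 109.9 CPM in the control libraries and 139, 139 and 141 CPM in the ESD libraries (0.35 ± 0.11), with nearly equal ESD libraries. Tgfb2 stood at 82.3, 97.1 and 88.2 CPM in the control libraries and 120.2, 123 and 96.8 CPM in the ESD libraries (0.35 ± 0.10). Chrdl1, which matures AMPA receptors, stood at 219.6, 259 and 227 CPM in the control libraries and 397, 228 and 330.1 CPM in the ESD libraries (0.44 ± 0.17), where ESD 2 was at the control level. Tgfb1, also made by microglia and vessels, lay the other way at 22.9, 26.9 and 30.8 CPM in the control libraries and 14.8, 13.6 and 23.1 CPM in the ESD libraries (-0.65 ± 0.29). The synapse-forming Sparcl1 (0.15 ± 0.13), Gpc4 (0.01 ± 0.09), Gpc6 (-0.07 ± 0.11) and Thbs4 (-0.10 ± 0.17) had overlapping groups. In glutamate handling, the uptake genes Slc1a2 (0.15 ± 0.19) and Slc1a3 (0.16 ± 0.13) lay above 0. Slc12a2, a chloride importer, stood at 110.5, 132 and 116 CPM in the control libraries and 80.4, 73.2 and 112 CPM in the ESD libraries (-0.44 ± 0.16).

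A pair of lists followed 1 library. Of 25 cell cycle genes 24 were above 0 (median 0.34), but the score was 1.0 in ESD 1 against -0.015 and -0.20 in ESD 2 and ESD 3, and no gene had an unadjusted p under 0.05. Ccnb1, the mitotic cyclin, stood at 6.02, 6.08 and 3.91 CPM in the control libraries and 17.8, 4.93 and 5.64 CPM in the ESD libraries, and Cenpf, a kinetochore protein, at 12.6, 12.4 and 9.72 CPM in the control libraries and 31, 12.2 and 9.56 CPM in the ESD libraries. Without ESD 1 the median was -0.0874 with 9 of 25 genes above 0. Interferon-stimulated genes lay below 0 in 19 of 21 cases (median -0.27), again with ESD 1 farthest from the controls, whose score was -1.18 against 0.29 in ESD 2. Ifit2 stood at 13.8, 12.1 and 11.4 CPM in the control libraries and 6.12, 12.3 and 9.88 CPM in the ESD libraries and Ifih1, an RNA sensor, at 10.9, 11.6 and 10.1 CPM in the control libraries and 5.96, 9.61 and 8.31 CPM in the ESD libraries. Without ESD 1 the median was 0.0261, and without ESD 2 it was -0.63 with 9 genes under an unadjusted p of 0.05.

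Heat shock and unfolded protein response genes did not share a direction: the list median was 0.0416, with 8 of 15 genes above 0 and 7 below, and without ESD 1 it was -0.16. Of the 15 genes 4 had an unadjusted p under 0.05, all lower, where 4.33% of all genes were. Hspa1a, an inducible HSP70, stood at 316, 386 and 436 CPM in the control libraries and 124, 184 and 278 CPM in the ESD libraries (-0.96 ± 0.32). Its near-identical neighbour Hspa1b stood at 307, 384 and 446 CPM in the control libraries and 128, 189.9 and 285 CPM in the ESD libraries (-0.92 ± 0.32). Reads of the 2 genes may have been shared between them. Dnajb1, an HSP40 partner, stood at 64.1, 66.1 and 57.6 CPM in the control libraries and 47.2, 44.2 and 53.6 CPM in the ESD libraries (-0.37 ± 0.11). Hsph1, a nucleotide exchange factor, stood at 76, 80.3 and 81.5 CPM in the control libraries and 60.8, 56.1 and 70.9 CPM in the ESD libraries (-0.34 ± 0.11). In all 4 every ESD library was below every control, which a small p makes likely. Over the whole list this held for 5 of 15 genes (8.65% of all genes), and 1 had every ESD library above every control (7.94%). Dnajb1 had a log2 fold change of -0.36 ± 0.11 in Cre- animals too, against -0.14 ± 0.32 for Hspa1a. Of the unfolded protein response genes, Atf4 (0.22 ± 0.12) was above the controls or level with the highest in each ESD library, and Xbp1 (-0.18 ± 0.15) and Calr (0.13 ± 0.11) overlapped. Among reactive astrocyte genes, the A1-type list had a median of -0.14 (0.00517 without ESD 1), with Ggta1 at 35.5, 35.8 and 35.8 against 23.8, 31.4 and 29 CPM (-0.35 ± 0.14), and Osmr, the oncostatin M receptor of the pan-reactive list, stood at 58.3, 70.9 and 67.6 against 43.8, 44.3 and 57.4 CPM (-0.44 ± 0.16). Immediate early genes had a median of 0.035. Fos stood at 1460, 1303 and 1210 CPM in the control libraries and 1945, 1547 and 1638 CPM in the ESD libraries (0.37 ± 0.19). Atf3, the one member under an unadjusted p of 0.05, stood at 88.5, 92.5 and 103 against 62.2, 84.3 and 85.5 CPM (-0.29 ± 0.13).

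Signalling lists held single genes with separate groups. In the FGF list, 3 of 11 genes had an unadjusted p under 0.05, all higher, where 3.25% of all genes were. Fgfr2, a receptor, stood at 271, 290.4 and 262 CPM in the control libraries and 344, 300 and 339.8 CPM in the ESD libraries (0.26 ± 0.08). The transcription factors of its pathway did likewise, with Etv4 at 115, 108 and 126 CPM in the control libraries and 147, 169 and 127 CPM in the ESD libraries (0.34 ± 0.10). Etv5 stood at 158, 163 and 175 CPM in the control libraries and 210.2, 188 and 189 CPM in the ESD libraries (0.24 ± 0.09). In the Sonic hedgehog list, Gli2, a transcription factor, stood at 85.8, 79 and 78.3 against 93.2, 90 and 108 CPM (0.26 ± 0.09). Gas1, a co-receptor, stood at 71.1, 72.1 and 71.4 against 77.3, 85 and 77.7 CPM (0.16 ± 0.07). In the Notch list, Jag1, a ligand, stood at 63.1, 55.5 and 66.4 against 41.2, 39.2 and 48.1 CPM (-0.53 ± 0.19), while the astrocyte target Hes5 stood at 128, 124 and 128 against 162, 151 and 142 CPM (0.26 ± 0.16). In the extracellular matrix list, Has2, a hyaluronan synthase, stood at 0.939, 0.912 and 0.526 CPM in the control libraries and 3.13, 1.61 and 1.25 CPM in the ESD libraries (1.33 ± 0.36). Cspg5, neuroglycan C, stood at 1175, 1287 and 1276 CPM in the control libraries and 1511, 1653 and 1339 CPM in the ESD libraries (0.27 ± 0.12). The lectican protease Adamts4 stood at 29.8, 34.8 and 26.5 CPM in the control libraries and 16.2, 10.4 and 23.5 CPM in the ESD libraries (-0.87 ± 0.36). Ncan, neurocan, was high in ESD 1 and ESD 2 only. It stood at 2270, 2509 and 2308 CPM in the control libraries and 3367, 3635 and 2235 CPM in the ESD libraries (0.38 ± 0.22). Circadian clock genes had a median of 0.0115, with Arntl at 39.6, 40.6 and 41.7 against 47.3, 44.2 and 44.7 CPM (0.16 ± 0.06). Bhlhe40 stood at 239, 227 and 215 against 338, 238 and 322 CPM (0.40 ± 0.16). Thrsp, a thyroid hormone responsive gene, stood at 16.5, 16.2 and 18.7 against 20.4, 22.8 and 24.1 CPM (0.39 ± 0.15).

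Whether the response to separation differed between the genotypes was tested as the difference of the 2 log2 fold changes, AGR cKO minus Cre-. No gene passed: 0 of 19163 (0%) had an edgeR adjusted p under 0.05, the smallest being 0.9036, and 860 (4.49%) had an unadjusted p under 0.05, 490 (2.56%) with the more positive and 370 (1.93%) with the more negative value in AGR cKO. DESeq2 called 9 of 19157 genes (0.047%), among them Sez6l2, Fzd10, Slc17a7, Zbtb16, Il4i1, Cacng8, Ptprn and Abcb9.

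On the more positive side, genes were named by p from those with a mean of at least 5 CPM whose AGR cKO groups did not overlap. The 6 so named lay above 0 in AGR cKO and below 0 in Cre- animals. Fzd10, a Wnt receptor, stood at 47.3, 44.7 and 42.6 CPM in the control libraries and 65.4, 49 and 69.6 CPM in the ESD libraries of AGR cKO. In Cre- animals it stood at 51.8, 58 and 72.5 CPM in controls and 34.1, 35.5 and 41.6 CPM in ESD. The difference was 1.16 ± 0.21 (SE) with an adjusted p of 0.904. Abcb9, a lysosomal peptide transporter, stood at 44.5, 43 and 47.7 against 55, 51.8 and 55.3 CPM in AGR cKO and at 44.6, 46.3 and 55.3 against 37.2, 39.4 and 38.7 CPM in Cre- (0.60 ± 0.12). Cacng8 stood at 20, 20.2 and 21.1 CPM in Cre- controls and 16.9, 17.5 and 17.4 CPM in Cre- ESD (0.55 ± 0.11), and Ccdc85c at 44.1, 43.2 and 45.2 against 41.1, 37.4 and 36 CPM (0.53 ± 0.12). Ngef (0.40 ± 0.09), a guanine nucleotide exchange factor, and Ccdc190 (0.51 ± 0.12) make up the 6 more positive genes named by p. The lack of overlap in AGR cKO was thus a condition for naming these genes. In Fzd10, Abcb9, Cacng8 and Ccdc85c, the Cre- groups did not overlap either, with separated libraries below controls. Ranking by p for the difference favours genes with an opposite shift in Cre- animals, so this is not a separate result. The share of all genes with separate Cre- groups was not computed.

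The more negative side held several neuronal genes. Slc17a7 stood at 2.75, 2.11 and 2.44 against 3.91, 1.86 and 5.1 CPM in Cre- animals, a difference of -2.37 ± 0.46 with an edgeR adjusted p of 0.904. Syt1 stood at 3.86, 4.8 and 4.27 against 7.03, 3.75 and 7.36 CPM (-2.0 ± 0.48), Snap25 at 4.49, 5.88 and 4.97 against 8.26, 5.19 and 4.73 CPM (-1.11 ± 0.31) and Ptprn at 2.31, 2.74 and 3.0 against 3.71, 2.57 and 3.6 CPM (-1.52 ± 0.32). For these 4 genes the mean was the highest of the 4 groups in AGR cKO controls and the lowest in AGR cKO ESD. The summed pan-neuronal markers did not follow that order. They stood at 281.6, 314.8 and 285 CPM in AGR cKO controls and 270, 252.3 and 263.5 CPM in AGR cKO ESD. In Cre- animals they stood at 238.4, 244.6 and 235.7 CPM in controls and 253.6, 233.6 and 232.4 CPM in ESD. Dcdc2a (-0.96 ± 0.27), a doublecortin domain protein, Mturn (-0.54 ± 0.16) and Rab8b (-0.41 ± 0.12) are further genes of the more negative side. Of 20 pan-neuronal markers 4, of 15 dense-core vesicle genes 6 and of 22 receptor genes 5 had an unadjusted p under 0.05 for the difference. All were more negative in AGR cKO, as were 1.93% of all genes at that p. The Cre- medians of these lists were 0.0619, 0.29 and 0.0769.

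Of 24 glucocorticoid-induced genes 1, Zbtb16, had an unadjusted p under 0.05 for the difference, also more negative in AGR cKO (1.93% of all genes). Zbtb16 stood at 12.9, 10.8 and 11.3 CPM in Cre- controls and 54.5, 48.7 and 104 CPM in Cre- ESD, a log2 fold change of 2.56 ± 0.35 against 0.32 ± 0.34 in AGR cKO. The difference was -2.24 ± 0.48 with an edgeR adjusted p of 0.98. Fkbp5 stood at 6.85, 9.53 and 7.17 against 11.1, 9.93 and 103 CPM in Cre- animals, where 1 library set the mean (-2.0 ± 1.02). Mertk stood at 429, 512 and 519.8 against 570.3, 534 and 818 CPM in Cre- animals, and the difference of -0.22 ± 0.24 did not exceed 1 SE. For mural genes the differences were negative but within 2 SE in Rgs5 (-0.76 ± 0.53) and Vtn (-0.57 ± 0.52), and Igf2 (-0.84 ± 0.36) was the one mural or fibroblast marker under an unadjusted p of 0.05. Of 20 cholesterol synthesis genes 4 were more positive in AGR cKO at that p (2.56% of all genes), among them Nsdhl (0.30 ± 0.08).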

How the data were processed

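Polyadenylated RNA of 12 astrocyte libraries was measured (TruSeq Stranded mRNA, per the labels' protocols). The authors deposited whole-number read counts and TPM per gene, per the file headers. The submitters' processing notes name Trimmomatic, HISAT, HISAT2 2.1.0, Bowtie2, StringTie 1.3.4b, DESeq2 and the mm10 genome without their roles, and the strand setting of the counting is not given in the sources used here, so overlapping and antisense genes cannot be told apart. Column names carry cre_M and cre_P, which were read as Cre minus and plus.

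Counts were tested in R 4.3.3 with edgeR 4.0.16 (quasi-likelihood F test, TMM scaling, filterByExpr, 1 mean per group, 12 libraries, 8 residual degrees of freedom), which kept 19163 of 45777 genes. P-values are two-sided and Benjamini-Hochberg adjusted over all of them, with a threshold of 0.05. CPM values are library-size scaled with TMM, and each ± after a log2 fold change is its standard error. An exact permutation test of 3 against 3 libraries cannot go below 0.1. DESeq2 1.42.0, limma 3.58.1 on log2(TPM + 1), other scaling and filters, the replicate number as a block and leaving out each library were alternatives. On simulated counts for 18815 genes with this comparison changed, 88.1% of 59 genes were recovered at a log2 size of 1, 98.6% of 73 at 2 and 100% of 68 at 3, with 9 false calls. Changes were planted only in genes of at least 5 CPM, so recovery of scarcer genes was not measured. Counts were drawn for each gene on its own, without shifts that many genes of a library share, as the real libraries may have. In the real comparison 601 genes had a log2 fold change of at least 1 in either direction, and 0 were called. The shares recovered therefore need not hold for the real libraries.

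The 45 gene lists hold 687 genes, 681 of them tested. The members and lists were chosen with earlier results of these data known. Named genes are those called, the 15 higher and 15 lower genes of smallest p with a mean of at least 5 CPM, non-overlapping groups and a named (not merely predicted) gene model, the 6 each way for the difference between genotypes, and list members. Promoters came from RefSeq on GRCm38.p6. The transcript table was not used, and some genes these rules name are not reported here.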

Additional observations from a re-analysis of the deposited data

Results flagged for a closer look

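For a pair of the 45 gene lists the score, set against the control mean of the same genotype, had one sign in all 3 separated AGR cKO libraries and the opposite sign in all 3 separated Cre- libraries. How many of 45 lists would show this pattern without any effect of separation was not tested. The dense-core vesicle and neuropeptide processing list scored -0.268, -0.0909 and -0.331 in separated AGR cKO libraries and 0.35, 0.238 and 0.0842 in the Cre- ESD libraries, and its medians differed by -0.429. The cholesterol synthesis list scored 0.0674, 0.145 and 0.114 in separated AGR cKO libraries and -0.0328, -0.0673 and -0.126 in Cre- ESD, and its medians differed by 0.175. For neither list was the difference itself tested. Some of these scores lie within the range of their own controls. For the dense-core vesicle list these are AGR cKO ESD 2, with controls from -0.128 to 0.147, and Cre- ESD 3, with controls from -0.172 to 0.141. For the cholesterol list these are Cre- ESD 1 and ESD 2, with controls from -0.102 to 0.0534.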

How the results depend on the processing

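With edgeR, limma and every other setting of the 20 alternatives except DESeq2, 0 genes were called for separation in AGR cKO or, where the fit held both genotypes, for the difference between genotypes. DESeq2 called 23 and 9. The smallest adjusted p for separation ran from 0.147 to 0.998 over the alternatives other than DESeq2, where it was 2.93e-05. The number of genes under an unadjusted p of 0.05 was 1762 in the fit of 6 libraries, 1540 with DESeq2, 1493 with limma on log2(TPM + 1), 1457 with median-of-ratios factors, 1672 with no filter and 1237 with the stricter filter of 1 CPM in 6 libraries. Leaving out 1 library at a time it ran from 839 (without AGR cKO control 1) to 1846 (without AGR cKO ESD 3), with 294 to 749 higher and 498 to 1097 lower. It was 953 without AGR cKO ESD 1 and 956 without AGR cKO control 2. Same-numbered AGR cKO libraries deviated together with correlations of 0.094, -0.0306 and 0.151, and differently numbered ones with -0.141 to 0.0614. The values 0.151 and 0.094 were thus the highest, though small. The numbers were not taken as pairs in the main fit, and a shared batch was not tested. With the replicate block 1664 genes had that p over 12 libraries (630 higher, 1034 lower) and 1702 over 6 libraries (441 higher, 1261 lower). Of 900 recomputed list medians 878 stayed within 1 SD of the library scores. Of 3252 recomputed log2 fold changes of genes named with one, 48 changed sign, in 23 of 163 genes. None of these genes was called for separation in AGR cKO, and DESeq2 called Zbtb16 for the difference between genotypes. Leaving out 1 library, these were Axl from -0.0858 to 0.0219, Col1a1 from -0.30 to 0.20, Dcn from -0.24 to 0.33, Fn1 from -0.46 to 0.05998, Gabrb1 from -0.12 to 0.031, Gabrg1 from -0.18 to 0.0151, Gas6 from -0.0485 to 0.0427, Gfap from -0.27 to 0.11, Gpc4 from -0.10 to 0.0822, Gpc6 from -0.16 to 0.0468, Hif3a from -0.10 to 0.40 and Lama5 from -0.14 to 0.18. The others were Lum from -0.45 to 0.0517, Megf10 from -0.11 to 0.17, Nr3c2 from -0.22 to 0.00371, Pdgfra from -0.39 to 0.0845, Rorb from -0.0645 to 0.16, Sgk1 from -0.31 to 0.14, Syn1 from -0.0945 to 0.0187, Syn2 from -0.0217 to 0.10, Thbs4 from -0.28 to 0.11, Tsc22d3 from -0.18 to 0.14 and Zbtb16 from -0.14 to 0.60. Other settings that changed a sign put Gas6 at -0.00237 in the fit of 6 libraries, Gas6 at -0.0244 with limma, Megf10 at -0.0396 with limma, Rorb at -0.00372 with limma, Gas6 at -0.000437 with the replicate block over 12 libraries, Gas6 at -0.00306 with the replicate block over 6 libraries, Gpc4 at -0.000716 with the replicate block over 6 libraries and Megf10 at -0.0174 with the replicate block over 6 libraries. The cause of these changes was not tested. Depth limits scarce genes such as Sst, which lay under 1 CPM in every AGR cKO library.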
